A study of Rattus norvegicus with 8 samples.

Results

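Expression of 8 voltage-gated potassium channel genes was followed in laser-captured motoneurons of the rat lumbar spinal cord between postnatal day 1 (P1) and postnatal day 21 (P21). The genes are Kcnb2 of the Kv2 family, Kcnc1, Kcnc2 and Kcnc4 of the Kv3 family, and Kcns1, Kcns2, Kcns3 and Kcnf1, which code for electrically silent subunits. Every probe set whose single annotated symbol was one of these names was taken, which gave 13 of the 31042 probe sets in the table and covered 7 of the 8 genes. Kcnf1 received no probe set by this rule and is not analysed here. All animals were Wistar albino rats with no genetic change or treatment named. The P1 group was sampled while motor axons were being myelinated and the P21 group after myelination had ended. Each age had 4 arrays, each made from a pool of 4 rats and 1500 to 2000 cells recognised by their cresyl violet stain, and the litters were divided between the ages. The comparison asked which transcripts differed between these 2 stages.

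Kv channels open when the membrane depolarises and let potassium out, which ends the action potential and sets how soon the next can follow. Kv3 channels open only at strongly depolarised voltages and close very fast, a behaviour known from neurons that fire at high rates. Kv2 channels carry a slower delayed rectifier current and cluster on the soma and proximal dendrites of motoneurons. The silent subunits (Kv5, Kv6, Kv8 and Kv9) form no working channel alone. They assemble with Kv2 subunits and alter the gating and the amount of that current.

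Of the 7 genes with a probe set, 4 were measured above the filter level. Kcns3 and Kcnc1 rose, Kcnc4 fell by a small amount, and Kcnc2 did not pass the test. The promoters of the 3 genes that were called are shown first, so that the members with opposite changes can be compared by sequence. Each is the 250 bases before an annotated start in RefSeq (build GRCr8), 5′ to 3′ on the strand of the gene, with GC boxes (GGGCGG on either strand) in capitals. The Kcnc1 window is chr1:106038997-106039246 on the plus strand. The Kcns3 windows, before 2 annotated starts, are chr6:39584106-39584355 and chr6:39583395-39583644 on the minus strand, and the Kcnc4 window is chr2:197788434-197788683 on the minus strand.
Kcnc1: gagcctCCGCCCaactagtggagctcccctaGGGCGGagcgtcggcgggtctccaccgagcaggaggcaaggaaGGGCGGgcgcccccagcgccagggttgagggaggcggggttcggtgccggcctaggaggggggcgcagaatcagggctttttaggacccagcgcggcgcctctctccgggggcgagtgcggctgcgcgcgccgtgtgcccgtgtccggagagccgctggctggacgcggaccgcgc
Kcns3 start 1: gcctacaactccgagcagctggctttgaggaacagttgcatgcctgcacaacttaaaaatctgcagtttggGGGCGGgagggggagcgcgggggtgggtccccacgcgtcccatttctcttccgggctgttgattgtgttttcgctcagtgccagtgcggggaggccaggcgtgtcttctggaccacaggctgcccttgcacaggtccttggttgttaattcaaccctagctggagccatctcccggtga
Kcns3 start 2: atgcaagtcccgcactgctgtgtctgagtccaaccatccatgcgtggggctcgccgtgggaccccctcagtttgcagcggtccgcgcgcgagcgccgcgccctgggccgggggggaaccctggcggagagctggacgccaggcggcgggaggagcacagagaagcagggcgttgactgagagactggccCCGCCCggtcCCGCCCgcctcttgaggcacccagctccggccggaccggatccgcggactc
Kcnc4: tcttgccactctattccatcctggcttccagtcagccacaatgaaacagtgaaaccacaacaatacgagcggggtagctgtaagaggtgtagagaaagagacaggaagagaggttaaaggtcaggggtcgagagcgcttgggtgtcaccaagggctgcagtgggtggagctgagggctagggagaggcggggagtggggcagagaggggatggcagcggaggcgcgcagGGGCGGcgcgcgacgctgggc

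The Kcnc1 window held 3 GC boxes and 30 CpG dinucleotides and was 74.4% G and C. The Kcns3 windows held 1 and 2 GC boxes, with 11 and 27 CpG dinucleotides and a G and C content of 59.2% and 72.4%. Kcnc4, which changed in the other direction, held 1 GC box and 13 CpG dinucleotides at 60.8% G and C. GC boxes occurred in 30.5% of the 33469 windows of this length in the table, whose median window had 5 CpG dinucleotides and 51.2% G and C. The cyclic AMP response element (TGACGTCA) and the TATA box (TATAAA), searched on both strands, were in none of these 4 windows and in 1.59% and 12.9% of all windows. Of the 8 members, 6 had a window in the table. The 2 windows of Kcnc2, which was not called, held 0 GC boxes, 2 and 4 CpG dinucleotides, and 56% and 56.4% G and C. Kcns1, which was not kept, held 1 GC box and 18 CpG dinucleotides at 68.8%. Kcnf1, which had no probe set, held 0 GC boxes and 8 CpG dinucleotides at 59.6%. Whether promoter content goes with the direction of change was not tested.

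Below, an intensity is the deposited linear value of a probe set, written ± SD, and a change is the difference of log2(intensity + 16), P21 minus P1, written ± its standard error, with n = 4 arrays per age. Probe sets were tested together with limma if they exceeded the 40th percentile of their array (the filter level, 221 to 287) on at least 4 of the 8 arrays. An adjusted p under 0.05 was a call, and every adjusted p is from limma with Benjamini-Hochberg adjustment over the 19155 probe sets kept. By this filter 6 member probe sets of 4 genes were kept and 7 were not. Of the 4 member genes, each read by its brightest kept probe set, 2 were called higher, 1 lower and 1 neither. Over all 10961 genes kept, 39.4% were called, 22.0% higher and 17.4% lower at P21, so calls were common. The median change was 0.17 over the 4 member genes (0.05 over all genes) but -0.21 over their 6 kept probe sets (0.07 over all probe sets), so the sign depends on how genes are read. Of the 6 member probe sets, 2 were called higher and 2 lower, against 38.3% called over all probe sets, 20.8% higher and 17.4% lower. In 3 of the 6 the intensities of the ages did not overlap, as in 38.0% of all probe sets (40.1% of genes).

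Kcnc1 codes for Kv3.1, the Kv3 subunit best known from fast-spiking neurons. Its only probe set, 1368524_at, read 2134, 1952, 1806 and 1912 at P1 in replicates 1 to 4, and 3178, 3070.3, 3174 and 2926 at P21. What follows on Kcnc1 rests on this probe set alone. The lowest P21 array lay well above the highest P1 array, and the arrays within an age were close together. Kcnc1 rose from 1951 ± 137 to 3087 ± 118, a change of 0.66 ± 0.09 or 1.58-fold (adjusted p = 3.12e-04). The 95% interval of the change was 0.46 to 0.86. In pooled RNA of this kind, fewer cells of a type and less RNA per cell cannot be told apart. The smallest estimate, 0.52 (adjusted p = 0.00340), came from centring each array on its median, and all 17 alternative settings, among them leaving out each array in turn, kept the call.

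Kcnc4 codes for Kv3.4, a Kv3 subunit whose channels inactivate quickly. Its brighter probe set, 1393163_at, read 4689, 4111, 4823 and 4714 at P1 and 4005, 3308, 3775 and 3419 at P21. The ages did not overlap, but the lowest P1 array and the highest P21 array lay closer to each other than to any other array of their own age. This probe set fell from 4584 ± 321 to 3627 ± 321, a change of -0.34 ± 0.10, or 1.26-fold lower at P21 (adjusted p = 0.0235). The other probe set, 1391369_at, read 1089, 1274, 833 and 925 at P1 and 711, 735, 737 and 895 at P21, where P21 replicate 4 reached into the P1 range. It fell by 0.40 ± 0.14 (adjusted p = 0.0497).

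Both Kcnc4 calls were close to the threshold. The call of 1393163_at was lost when any of P1 replicates 1, 3 and 4 and P21 replicates 2 and 4 was left out (adjusted p between 0.0559 and 0.0663) and without the filter (adjusted p = 0.0523). The call of 1391369_at was lost when any of P1 replicates 1, 2 and 4 and P21 replicates 1, 2 and 3 was left out (adjusted p between 0.0626 and 0.112), and its adjusted p was 0.0564 with the replicate number as a block. Both probe sets stayed negative under each alternative, and the mean of the 2 fell by 0.37 ± 0.09 (adjusted p = 0.00739).

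**Figure D1:**
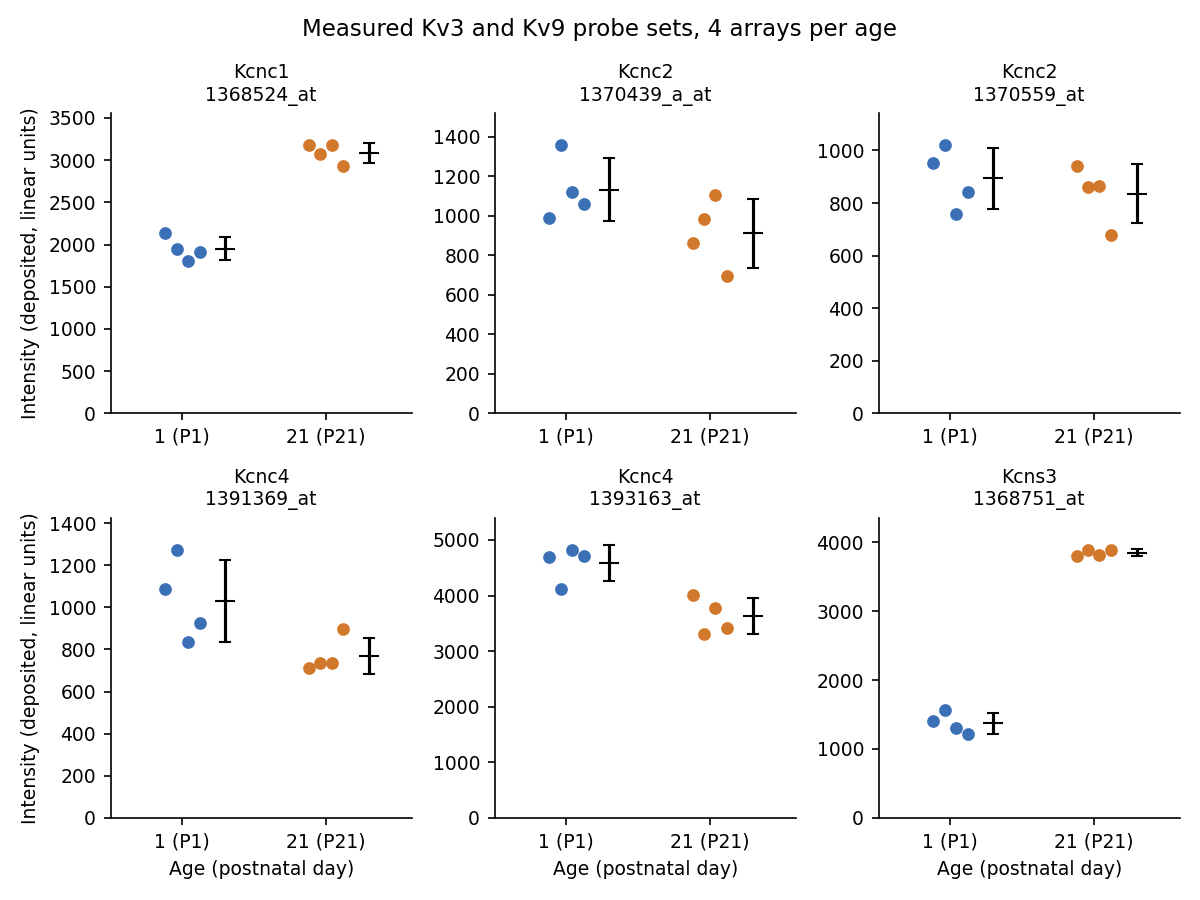
Deposited intensity (linear units, from 0) of the 6 kept member probe sets at P1 (blue) and P21 (orange), 4 arrays each, in the order of their replicate numbers from left to right. The bars beside the points are the mean and SD; Kcnc1 and Kcns3 are separated between the ages with no array between them, whereas both Kcnc2 probe sets overlap.

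Kcnc2 codes for Kv3.2, which is expressed in several spliced forms, and had 6 probe sets, of which 2 were kept. The brighter, 1370439_a_at, read 988, 1359, 1123 and 1061 at P1 and 862, 985.5, 1106.5 and 695 at P21, so the ages overlapped. Its change was -0.32 ± 0.16 (adjusted p = 0.139), with a 95% interval from -0.67 to 0.03. After centring of the arrays it was -0.46 ± 0.16 and passed (adjusted p = 0.0487). The other kept probe set, 1370559_at, read 953, 1020.1, 758 and 843 at P1 and 939, 861, 865 and 677 at P21. The change of this probe set was -0.10 ± 0.13 (adjusted p = 0.598), with a 95% interval from -0.39 to 0.20. Without P21 replicate 4, the lowest array of both probe sets, the changes were -0.20 (adjusted p = 0.314) and -0.0011 (adjusted p = 0.996), and without P1 replicate 2, the highest, -0.23 (adjusted p = 0.276) and -0.031 (adjusted p = 0.873). Both intervals lie below the rise fitted for Kcnc1.

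The Kv3 genes were also compared within each array, where a scaling shared by its probe sets cancels. The log2 difference Kcnc1 minus Kcnc4 was -1.13, -1.07, -1.41 and -1.29 on the P1 arrays and -0.33, -0.11, -0.25 and -0.22 on the P21 arrays. Relative to Kcnc4, Kcnc1 was thus 2.00-fold higher at P21 than at P1, and no array of 1 age lay in the range of the other. The ages of both probe sets were already separate, in opposite directions. This lack of overlap therefore restates their own values and adds no support. The difference Kcnc1 minus Kcnc2 was 1.10, 0.52, 0.68 and 0.84 at P1 and 1.86, 1.62, 1.51 and 2.05 at P21, a 1.97-fold shift, again without overlap. Kcnc2 minus Kcnc4 overlapped, at -2.01 ± 0.29 (SD) at P1 and -1.99 ± 0.29 at P21. With the other kept probe sets of Kcnc2 and Kcnc4 the shifts of Kcnc1 were 1.69-fold and 2.09-fold, and these did not overlap either. The differences are descriptions with no test, and since probes differ in how they bind, only their shift between the ages can be read, not which subunit had more transcript.

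**Figure D2:**
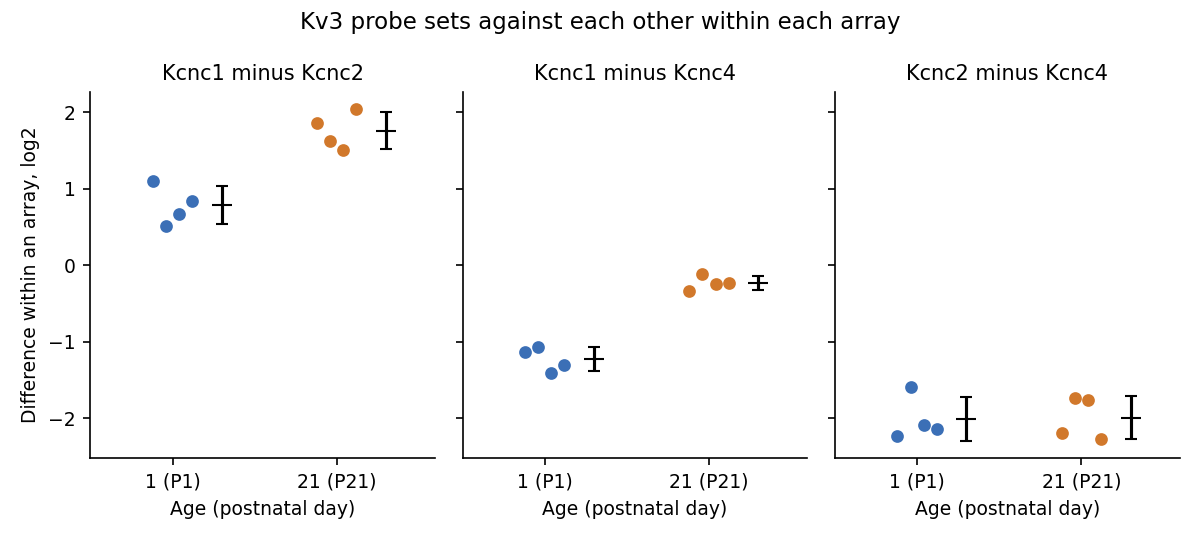
Difference of log2(intensity + 16) between the brightest kept probe sets of the Kv3 genes on the same array (vertical axis, log2 units) at P1 (blue) and P21 (orange), with mean and SD of 4 arrays. Both differences that contain Kcnc1 are higher on all 4 P21 arrays than on any P1 array, and Kcnc2 minus Kcnc4 overlaps between the ages. For Kcnc1 minus Kcnc4 this follows from the separate ages of each probe set.

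Kcns3 codes for Kv9.3, a silent subunit that assembles with Kv2 channels. Its only probe set, 1368751_at, read 1408, 1565, 1308 and 1211 at P1 and 3807, 3888, 3818 and 3891 at P21. What follows on Kcns3 rests on this probe set alone. The P21 arrays differed among themselves by less than the P1 arrays did, and no P21 array lay near the P1 range. Kcns3 rose from 1373 ± 151 to 3851 ± 45.0, a change of 1.48 ± 0.10 or 2.80-fold (adjusted p = 4.58e-06). The call held under all 17 alternatives, with changes between 1.35 and 1.55. This was the largest change among the 6 kept member probe sets.

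The other Kv9 genes with a probe set stayed under the filter level on every array. Kcns1, which codes for Kv9.1, read 113, 96.0, 153 and 118 at P1 and 132, 102, 40.8 and 81.5 at P21. Kcns2, which codes for Kv9.2, read between 53.0 and 113 at P1 and between 50.6 and 99.6 at P21. Levels in this range have no order that can be relied on, and a change there was not measurable. The same held for Kcnb2, which codes for the Kv2.2 channel itself and read 143 to 196 at P1 and 175 to 217 at P21. The remaining 4 probe sets of Kcnc2 lay there too, and among the 7 probe sets that were not kept, 3 of 56 values exceeded the level of their array, all 3 of them from Kcnc2. Fitted without the filter, 0 of these 7 were called by limma, and 0 had an unadjusted p under 0.05 (unadjusted p between 0.0865 and 0.723).

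**Figure D3:**
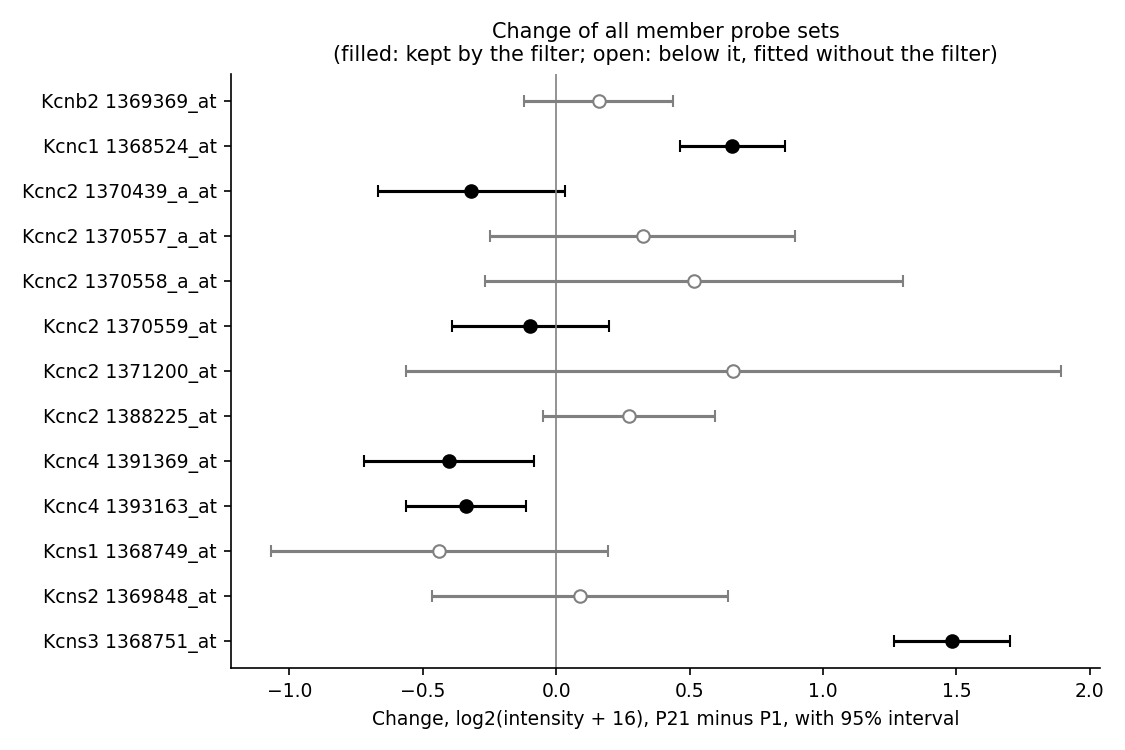
Change of each of the 13 member probe sets (horizontal axis, difference of log2(intensity + 16), P21 minus P1) with its 95% interval. Filled points were kept by the filter, and open points lay under it and come from the fit without the filter; the intervals of Kcns3 and Kcnc1 lie above 0, those of the 2 Kcnc4 probe sets below 0, and those of all open points include 0.

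Related subunits that are not among the members also held a rise and a fall, to be read beside the 39.4% of all genes that were called. Of 8 such Kv2, Kv3 and silent genes listed, 4 had a probe set (Kcng2, Kcng3, Kcnv1 and Kcnv2) and 3 were kept, of which 1 rose, 1 fell and 1 did not pass. The remaining 4 are not analysed here. The 2 Kv8 genes, which also code for silent partners of Kv2, were called in opposite directions. Kcnv1 (Kv8.1) read 469, 573, 701 and 637 at P1 and 101, 79.1, 181 and 75.9 at P21, where all 4 arrays lay under the filter level. It fell at least 2.08-fold, the bound being set against that level, and it passed the filter through the P1 arrays only. The adjusted p of 5.81e-05 is that of the fitted change, which uses the P21 values under the level, and not of the bound.

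Kcnv2 (Kv8.2) was under the filter level on all P1 arrays, at 194, 241, 121 and 139, and read 539, 668, 498 and 619 at P21. It rose at least 2.22-fold on this probe set, 1390065_at, which passed the filter through the P21 arrays only. The adjusted p of 1.31e-04 is that of the fitted change, which uses the P1 values under the level. The other Kcnv2 probe set, 1396871_at, read 222 to 312 at P1 and 305 to 331 at P21 and did not pass (0.21 ± 0.12, adjusted p = 0.175). The rise of Kcnv2 therefore rests on 1 of its 2 probe sets. Kcng2 (Kv6.2) read 506 ± 113 at P1 and 594 ± 43.9 at P21 and did not pass (adjusted p = 0.246).

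**Figure D4:**
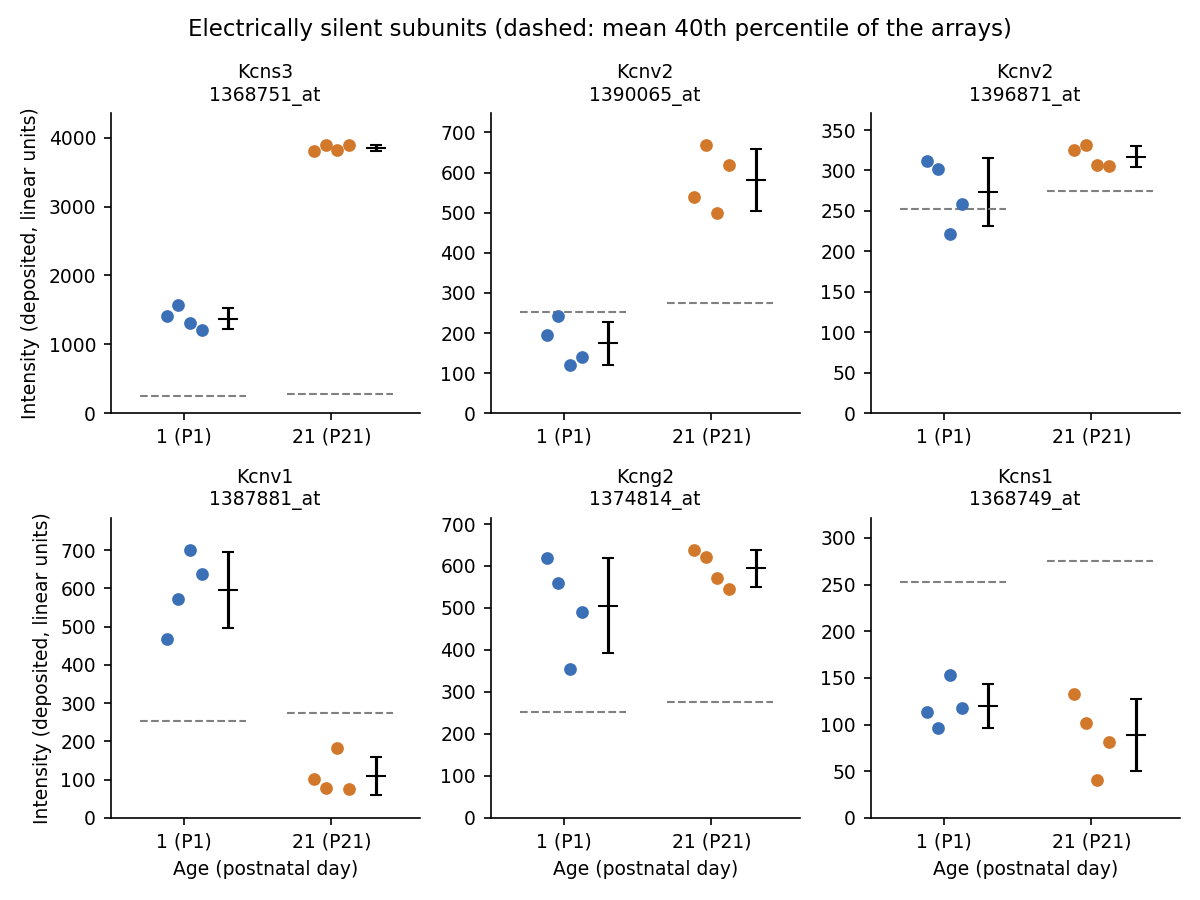
Deposited intensity (linear units, from 0) of probe sets of electrically silent subunits at P1 (blue) and P21 (orange), with mean and SD of 4 arrays; the dashed line is the mean filter level of the arrays of each age. Kcns3 and Kcnv2 probe set 1390065_at are higher on every P21 array, Kcnv1 drops under the filter level at P21, and Kcns1 is under it at both ages.

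Genes of proteins that bind or regulate these channels were taken as 3 lists, to be read beside the 39.4% of all genes that were called. Of 7 listed partners of Kv2, 5 were kept, of which 1 rose, 1 fell and 3 did not pass. Amigo1, a membrane protein that travels with Kv2 channels and shifts their gating, read 2229, 1770.2, 2061 and 2181 at P1 and 3157, 2773, 3124 and 2729 at P21, without overlap. It rose by 0.51 ± 0.11, or 1.43-fold (adjusted p = 0.00384), a call that median centring took away (0.38, adjusted p = 0.0592). The faller was the SNARE gene Stx1a, by at least 8.57-fold on a probe set under the filter level at P21. Its second probe set was under that level at both ages.

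Of 9 listed partners and regulators of Kv3, 6 had a probe set and 5 were kept, of which 1 rose, 0 fell and 4 did not pass (2 rose without P1 replicate 2 or without P21 replicate 4). Kcne3, an accessory subunit that can assemble with Kv3.4, was under the filter level on the P1 arrays (72.9 to 135) and read 292, 338, 563 and 318 at P21. Its rise was at least 1.42-fold, and it passed the filter through the P21 arrays only. The adjusted p of 4.25e-04 is again that of the fitted change and not of the bound. The second probe set of Kcne3 was under the level at both ages. Of 5 genes of the C-bouton, the large cholinergic synapse on motoneurons under which Kv2 channels are clustered, 2 were kept on their brightest probe set and neither passed by limma. In that list the muscarinic receptor gene Chrm2 had a change of 0.43 ± 0.16 (adjusted p = 0.0562), and it was called with the replicate block (adjusted p = 0.0350) and without P21 replicate 2 (adjusted p = 0.0264).

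Other Kv families are given for comparison of counts, again beside the 39.4% of all genes that were called. Of 10 Kv1 and beta subunit genes listed, 6 were kept, of which 5 rose and 1 fell. Kcnab2 (1.02 ± 0.08) and Kcnab1 (0.95 ± 0.11), the beta subunits that attach to Kv1 channels, led the rises, the last on 1 of its 2 kept probe sets (the other 0.04 ± 0.15), and Kcna6 fell (-2.12 ± 0.19), although its second kept probe set did not pass (0.17 ± 0.18). Of 9 genes of Kv4 channels and their auxiliary proteins, all 9 were kept, of which 3 rose and 4 fell (2 fell without P1 replicate 4). Kcnip4 (0.55 ± 0.11) and Kcnd1 (0.48 ± 0.13) rose, and Kcnd2 (-1.69 ± 0.09), the Kv4.2 gene, and Kcnip1 (-1.04 ± 0.12) fell. Whether the members differ from these families was not tested.

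The genes closest to Kcns3 in pattern, by Pearson correlation of log2 values over the 8 arrays among all kept genes, were Itpr1 (r = 0.998), the IP3 receptor of calcium stores, Il2rb (r = 0.998) and Pex5l (r = 0.998), which codes for a protein that controls trafficking of HCN channels. Itpr1 rose from 417 ± 29.0 to 1194 ± 32.5, a change of 1.49 ± 0.09 that was close in size to that of Kcns3. The P1 means of Il2rb (122 ± 30.7) and Pex5l (173.5 ± 44.0) lay under the filter level, where the order of values cannot be relied on. In all, 59 genes exceeded r = 0.99 with Kcns3. For Kcnc4 the closest were Alg2 (r = 0.994), Ppp1r9b (r = 0.991), the gene of the spine protein spinophilin, and Cpsf2 (r = 0.991), and only these 3 exceeded 0.99. The 8 arrays share 2 ages, so a gene with a large rise between them tends to score high with Kcns3. The changes of the 3 genes closest to Kcnc4 were small, at -0.33, -0.41 and -0.36. All these correlations are given as a description.

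The captured pools held RNA of other cells, and markers of these also moved. Their counts are likewise to be read beside the 39.4% of all genes that were called. Of the 6 motoneuron markers listed, 5 had a probe set and all 5 were kept, with Chat called higher, Isl1 called lower and 3 not passing. Their summed intensity was 17643 to 20383 at P1 and 18996 to 23899 at P21. Of 6 oligodendrocyte markers measured, 6 rose, and their summed intensity went from between 4658 and 6449 at P1 to between 25033 and 27559 at P21. Mobp, Mog and Opalin were under the filter level on every P1 array and passed the filter through the P21 arrays only. Among the oligodendrocyte markers, only Mobp had P1 values at or under 0. Of 5 astrocyte markers 4 rose and 0 fell (summed intensity 3072 to 4042 at P1, 8456 to 9852 at P21). Of 5 microglial markers 3 were kept, of which 2 rose and 0 fell (summed intensity of the list 1520.5 to 2276 and 2154 to 3401). Cd68 and Itgam were not kept. Itgam, under the filter level on every array, read 64.4 to 166 at P1 and 9.25 to 41.8 at P21. Fitted without the filter, it was called lower by limma (-1.66, adjusted p = 0.00607). Of 4 endothelial markers 2 rose and 0 fell (1948 to 3255 and 2410 to 6072). The endothelial count was 1 when any array but P21 replicate 4 was left out.

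Markers of spinal interneurons, cells in which Kv3 channels are also expressed, were divided. Of 6 listed, 4 were kept, of which 1 was called higher (Slc32a1) and 2 lower (Gad1 and Slc17a6), but neither count was stable. The count higher was 0 when any of P1 replicates 3 and 4 and P21 replicates 1 and 3 was left out, and 2 without P1 replicate 2. The count lower was 0 when any of P1 replicates 1 and 3 and P21 replicate 2 was left out, and 1 when any of P1 replicates 2 and 4 and P21 replicates 1 and 4 was left out or with the replicate block. Gad1 fell by 0.56 on its brighter probe set, while its other kept probe set did not pass (0.51 ± 0.21), and its call was lost under 10 of 17 alternatives. The summed intensity of the list was 7850 to 8951 at P1 and 5619 to 8434 at P21. Slc17a6 alone gave 5210 to 5936 of it at P1 and 2833 to 4888 at P21. The part of these cells in the changes of Kcnc1, Kcnc4 and Kcns3 was not tested.

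**Figure D5:**
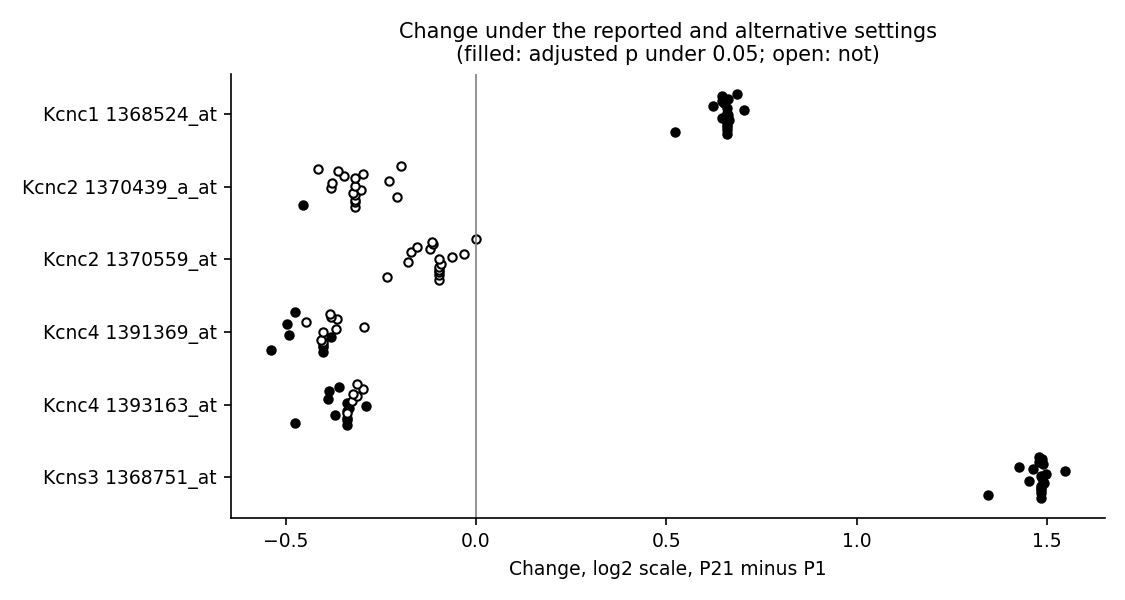
Change of the 6 kept member probe sets (horizontal axis, log2 scale, P21 minus P1) under the reported setting and each alternative, 1 point each; filled points passed at an adjusted p under 0.05 and open points did not. Kcnc1 and Kcns3 passed under all settings, whereas each Kcnc4 probe set passed under some and not others.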

How the data were processed

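RNA of laser-captured motoneuron pools (12 µm sections, about 50 ng RNA per pool) was amplified in 2 rounds with poly(A)-primed reverse transcription and read on Affymetrix RAE230 2.0 arrays, per the labels' protocols and the design text. The authors deposited 1 linear intensity per probe set and array, while their summarisation, background correction and scaling are not given in the sources used here. Array medians lay between 323 and 416, and 66 to 250 values per array were below 0. With 4 arrays per age, the precision is limited by their number.

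Negative intensities became 0, and log2(intensity + 16), which understates changes of dim genes, was fitted with limma 3.58.1 in R 4.3.3 (lmFit, eBayes, P21 against P1, no covariate). The code was tested on simulated data whose changes were larger than those of Kcnc1, Kcnc2 and Kcnc4. That test does not bear on changes of their size. Of the probe sets, 20826 had 1 symbol, 436 several and 9780 none. Folds of genes under the filter level at 1 age are set against that level. The alternatives were pseudocounts of 1 and 64, no filter, a filter at the 60th percentile, centring, quantile normalization, an intensity trend, the replicate block, the mean of a gene's kept probe sets, and leaving out each array.

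The members and lists were chosen with earlier results of these data known. All members were named, with up to the 2 largest called genes in each direction from each list of related genes, the 3 genes closest in pattern to the member with the largest called rise and to that with the largest called fall, and a few further genes chosen after their values were seen. To check the pairing, each array was centred on its age mean. P1 and P21 arrays with the same number then correlated at 0.514, 0.321, 0.558 and 0.150, which meets the criterion for pairing (every correlation over 0.1). The reported fit has no block, and the fit with the number as a block is given where it changes a call. The design text divides litters between the ages without saying that a number is a litter, and some differently numbered arrays correlated as well, up to 0.366. Promoter sequences are from RefSeq (GRCr8).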

Additional observations from a re-analysis of the deposited data

Results flagged for a closer look

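Among 26 groups of 4 intensities (13 member probe sets at 2 ages), 2 held an array that stood apart from the other 3 by Dixon's test, which chance gives in about 1 group in 20. In Kcnc4 probe set 1391369_at, P21 replicate 4 read 895 against 711 to 737 on the other P21 arrays. Without it the change was -0.47 (adjusted p = 0.0363 by limma), compared with -0.40 over all arrays. In Kcns2, P1 replicate 2 read 113 against 53.0 to 60.8 on the other P1 arrays, all under the filter level.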

How the results depend on the processing

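The calls of Kcnc1 and Kcns3 and the count of 2 member genes higher were the same under all 17 alternatives run. The count of member genes lower, 1 as reported, was 2 with the arrays centred on their medians, where Kcnc2 probe set 1370439_a_at passed with a change of -0.46, was 0 without the filter, and lay between 0 and 1 when single arrays were left out. Kcnc4 probe set 1391369_at kept its change of -0.40 but not its call without the filter (adjusted p = 0.0917, more probe sets tested) and with the replicate block (adjusted p = 0.0564), and had a change of -0.41 with a pseudocount of 1 (adjusted p = 0.0509). Its change lay between -0.50 and -0.29 without single arrays. Kcnc4 probe set 1393163_at kept its change of -0.34 but not its call without the filter, and lay between -0.39 and -0.30 without single arrays. The replicate block changed no call of another member. With centring, rises made up 38.6% of the calls in place of 54.4%, and the median change of all probe sets was -0.07 in place of 0.07, so small changes depend on the scaling. Nrg1 probe set 1370607_a_at had a change of -0.14 that turned to 0.33 with the mean of its probe sets, 0.031 without P1 replicate 1 and 0.084 without P21 replicate 4, in a range from -0.33 to 0.084 over single arrays left out. Of 408 recomputed counts of listed genes, 364 stayed within 1.5 times. With the filter at the 60th percentile Kcnv1, Kcnv2 and Kcne3 were not tested. Kcnb2, Kcns1 and Kcns2 were under the filter level on every array, so their changes were not measurable under the reported setting.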

Other observations

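Nrg1, a neuregulin gene with several transcript starts whose protein is present at C-boutons, had probe sets that differed, and it is described here after its values were seen. Its brightest probe set, 1370607_a_at, did not pass limma's test (4406 ± 1181 at P1 and 4113 ± 1474 at P21, adjusted p = 0.719). A dimmer one, 1371212_at, read 278, 271, 246 and 282 at P1 and 578, 569.75, 607 and 466 at P21, without overlap. It rose by 1.00 ± 0.11 (adjusted p = 7.53e-05). Csnk2a1, which codes for a subunit of casein kinase, did not pass on its brightest probe set (1375636_at, -0.07 ± 0.09, adjusted p = 0.575) and had 1 probe set called higher (1384339_s_at, 0.59 ± 0.18, adjusted p = 0.0244) and 1 called lower (1392650_at, -0.43 ± 0.15, adjusted p = 0.0431). The first of these calls was lost under 4 of 16 alternatives (adjusted p up to 0.0689) and the second under 9 of 15 (adjusted p up to 0.107).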
